A study of Mus musculus with 18 samples.

Results

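Genes known from recruited and lipid-associated macrophages were read in mouse liver, 10 in all: Mmp12, Gpnmb, Lgals3, Trem2, Cd9, Spp1, Cd68, Tyrobp, Itgax and Cybb. Members were taken by gene symbol from the array annotation, and the brightest probe set, a group of short probes against 1 transcript, stood for each gene. Of the 10 genes, 9 had a probe set, among 18193 genes that had one, and all 9 passed a filter on dim probe sets that left 14691 genes. Spp1, the gene of the secreted protein osteopontin, was not analysed here. Total RNA of C57BL/6 liver had been hybridised to Affymetrix mouse expression arrays, 18 in all, 3 in each of 6 groups. The groups were AIM-KO mice (AIM-/-) on normal chow, WT mice (AIM+/+) on normal chow, AIM-KO and WT mice on a high-fat diet (HFD) for 12 weeks, and AIM-KO and WT mice on the HFD for 20 weeks. AIM, apoptosis inhibitor of macrophage, is a secreted protein that macrophages make, encoded by Cd5l. The labels do not say how Cd5l was disrupted, nor the age or sex of the mice, and a longer diet and an older mouse cannot be told apart. They name the samples biological replicates without tying each to a separate animal, so the p-values measure the spread between these samples.

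Liver normally holds resident macrophages, the Kupffer cells, which line the sinusoids. When hepatocytes store excess fat, blood monocytes enter the liver and can become lipid-associated macrophages, which gather around fat-laden and dying hepatocytes and take up their lipid. Such cells are known by a receptor and its adaptor, TREM2 and TYROBP, by secreted and lysosomal proteins such as the elastase MMP12, galectin-3 and GPNMB, by surface proteins such as CD9 and CD11c, and by the oxidase that phagocytes use against microbes.

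Intensities are the deposited values of each array on a linear scale, with medians of 15 to 21.1 over the arrays. Cd5l read 4.0 to 23.5 on the 9 AIM-KO arrays, against 702.6 to 1926.8 on the 9 WT arrays. A set of 4 arrays stood apart from the other 14, namely all 3 AIM-KO arrays at 20 weeks and WT HFD 20 weeks replicate 2. On these 4 arrays Xist, the RNA of the silenced X chromosome in females, read 2921.6 to 3049.7, against 7.8 to 26.2 on the other 14, while the Y-linked gene Eif2s3y read 3.9 to 7.3 against 498.4 to 675.1. At 20 weeks in AIM-KO livers, genotype, time on diet and this difference therefore cannot be told apart within that group. The members' and lists' calls at 20 weeks are given also with an added model term for high Xist, which rests on 1 WT array. They are given as well without that WT array. Without it, Xist is high on every AIM-KO array at 20 weeks and on no WT array. Between the genotypes at 20 weeks, that fit therefore cannot tell genotype and high Xist apart. The 3'/5' signal ratio of actin, a measure of RNA integrity, was 2.35 to 2.61 in AIM-KO and 2.54 to 4.22 in WT livers at 20 weeks, and 2.25 to 3.79 in the other 4 groups. All 10 listed hepatocyte markers were on the array, albumin between 6138.8 and 11103.8, and none of 66 marker genes of liver and blood cells that passed the dim filter was at 0 on any array.

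The start regions of several of these genes hold short DNA motifs bound by factors that are active in macrophages. Of the regions with a match, 4 are shown, and those of Trem2, Cd9 and Cybb are not. A part of these motifs in the genes' changes was not tested. RefSeq promoter windows of build GRCm38.p6, which run from 250 bases before a gene's start to 50 after it, were found for 8 of the 9 members and not for Tyrobp. They were searched on both strands for GAGGAA, a core motif of the macrophage factor PU.1, for TGANTCA, the motif of the stimulus-responsive factor AP-1, and for CACGTG and CATGTG, motifs of the lysosomal MiT factors. Capitals mark the matches, which did not overlap. The windows are Mmp12 at chr9:7344147-7344446 on the plus strand (1 of 2 listed for this gene), Gpnmb at chr6:49036268-49036567 on the plus strand, Cd68 at chr11:69666121-69666420 on the minus strand, and Itgax at chr7:128129300-128129599 on the plus strand, all written 5′ to 3′ in the direction of the gene.
Mmp12: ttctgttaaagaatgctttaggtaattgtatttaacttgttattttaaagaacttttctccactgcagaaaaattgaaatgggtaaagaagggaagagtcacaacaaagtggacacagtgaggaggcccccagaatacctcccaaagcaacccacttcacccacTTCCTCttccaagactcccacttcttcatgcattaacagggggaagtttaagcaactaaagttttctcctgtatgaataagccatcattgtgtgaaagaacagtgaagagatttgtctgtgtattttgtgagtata
Gpnmb: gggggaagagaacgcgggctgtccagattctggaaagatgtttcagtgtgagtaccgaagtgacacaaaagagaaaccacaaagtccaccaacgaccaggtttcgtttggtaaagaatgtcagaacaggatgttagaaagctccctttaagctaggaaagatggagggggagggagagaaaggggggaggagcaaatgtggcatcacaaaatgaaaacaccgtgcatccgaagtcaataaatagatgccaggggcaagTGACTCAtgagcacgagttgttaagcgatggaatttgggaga
Cd68: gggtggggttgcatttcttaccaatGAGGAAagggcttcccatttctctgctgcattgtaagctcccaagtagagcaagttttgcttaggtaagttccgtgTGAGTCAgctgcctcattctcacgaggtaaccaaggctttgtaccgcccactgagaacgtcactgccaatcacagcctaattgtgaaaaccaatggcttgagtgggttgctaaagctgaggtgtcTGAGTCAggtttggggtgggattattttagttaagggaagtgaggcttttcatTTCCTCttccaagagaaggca
Itgax: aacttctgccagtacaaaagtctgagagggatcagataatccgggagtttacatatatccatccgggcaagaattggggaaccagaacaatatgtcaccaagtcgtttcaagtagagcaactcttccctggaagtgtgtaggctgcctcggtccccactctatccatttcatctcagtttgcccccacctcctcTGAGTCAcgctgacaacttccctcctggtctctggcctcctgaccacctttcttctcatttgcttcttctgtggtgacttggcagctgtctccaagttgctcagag
Mmp12 had 1 PU.1 core, on the opposite strand, starting 86 bases before the start. Gpnmb had 1 AP-1 motif, 8 bases after it. Cd68 had an AP-1 motif 149 and another 24 bases before the start, and PU.1 cores 225 bases before and 29 bases after it. Itgax had 1 AP-1 motif 56 bases before the start. Over the 8 windows, 5 held the AP-1 motif (Gpnmb, Trem2, Cd68, Itgax and Cybb) and 4 the PU.1 core (Mmp12, Trem2, Cd68 and Cybb), where 7.8% and 28.3% of all 32851 windows did. CATGTG was found in 1 member window, that of Cd9, and in 14.2% of all windows, and CACGTG in none, against 7.2% of all. The Lgals3 window held none of the 4 motifs.

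After 12 weeks of HFD, 8 of the 9 genes rose against chow in AIM-KO livers, where 11.2% of all genes were called higher, and at 20 weeks the same 8 rose against chow in WT livers, where 8.69% were. In AIM-KO livers 6 of the 8 fell at 20 weeks against 12 weeks, where 2.11% of all genes were called lower, and with the Xist term limma called none of the 6. That term left 0.034% of all genes called in either direction, against 3.42% without it. The exception was Trem2, which was dim throughout. Values of single arrays are given first, in the order of the genes' roles, and the tests after them. Changes are on the log2 scale with their standard error and 3 arrays in each group, from one limma fit of all 18 arrays, and a gene was called changed at a Benjamini-Hochberg adjusted p under 0.05 over all 14691 genes. In whole liver, more macrophages, more RNA per macrophage and RNA of the same genes from other cells cannot be told apart.

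**Figure D1:**
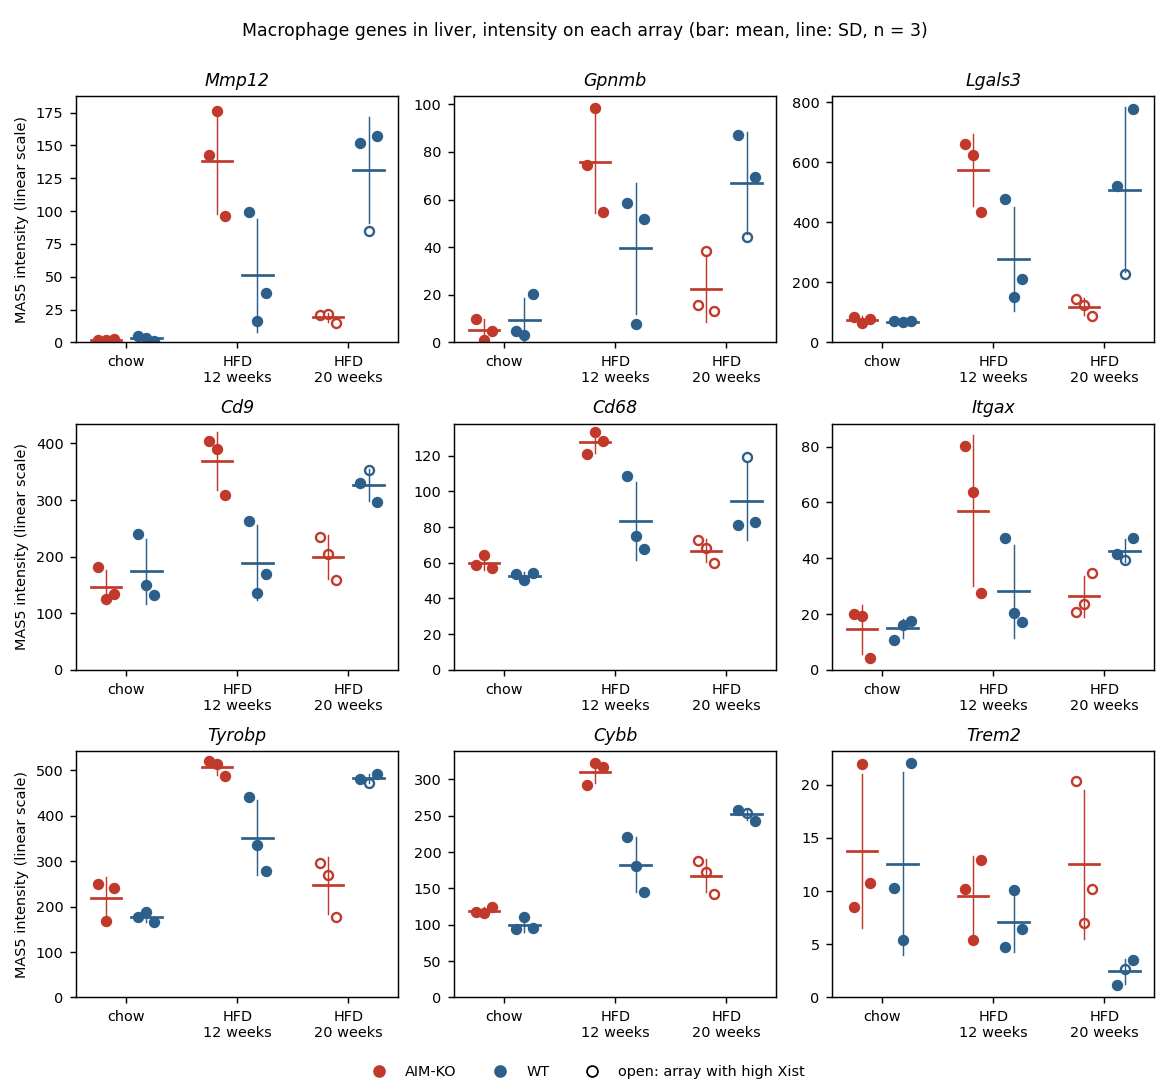
MAS5 intensity (linear scale) of 9 macrophage genes on each of 18 liver arrays, by diet, with AIM-KO (red) to the left of WT (blue); bars are means and lines are SD of 3 arrays, and open points are the 4 Xist-high arrays. Mmp12 reads 96.0 to 176.0 in AIM-KO livers at 12 weeks and 14.8 to 21.5 at 20 weeks, while in WT livers it reads 16.4 to 99.4 at 12 weeks and 84.9 to 156.9 at 20 weeks.

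Among the secreted and lysosomal products, Mmp12 encodes the elastase of macrophages, which cuts elastin and other matrix proteins. On chow Mmp12 read 2.0, 1.5 and 2.7 in AIM-KO livers, against 5.1, 3.3 and 1.1 in WT livers. At 12 weeks Mmp12 read 142.9, 176.0 and 96.0 in AIM-KO livers, against 99.4, 16.4 and 37.9 in WT livers. At 20 weeks Mmp12 read 20.9, 21.5 and 14.8 in AIM-KO livers, against 152.0, 84.9 and 156.9 in WT livers. On chow no array reached 6, under the 40th percentile of each array (9.5 to 14.2), so Mmp12 passed the dim filter through the HFD arrays. All 3 AIM-KO arrays at 12 weeks lay above the chow arrays and above 2 of the 3 WT arrays at 12 weeks, replicate 1 of WT (99.4) lying within their range. The order was the other way at 20 weeks, and no AIM-KO array came near the lowest WT array. Against chow, Mmp12 rose by 4.69 ± 0.43 (adjusted p = 1.54e-06) in AIM-KO and by 2.81 ± 0.43 (adjusted p = 0.000681) in WT livers at 12 weeks, and by 2.05 ± 0.43 (adjusted p = 0.00645) in AIM-KO and by 4.38 ± 0.43 (adjusted p = 3e-06) in WT livers at 20 weeks. Because every chow array was that dim, these sizes depend on the pseudocount and ran from 3.28 to 5.57 in AIM-KO and from 1.77 to 3.49 in WT livers at 12 weeks, and from 1.07 to 2.78 in AIM-KO and from 3.11 to 5.14 in WT livers at 20 weeks, as it was made 4 times larger or smaller. The AIM-KO call at 20 weeks was lost with the larger one (adjusted p = 0.063). With each chow array set to its 40th percentile, Mmp12 was at least 12.8-fold higher in AIM-KO and at least 3.56-fold higher in WT livers at 12 weeks, and at least 1.79-fold higher in AIM-KO and at least 11.4-fold higher in WT livers at 20 weeks.

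Gpnmb encodes a transmembrane glycoprotein of lysosomes and phagosomes that lipid-loaded macrophages make. On chow Gpnmb read 10, 1.1 and 4.9 in AIM-KO livers, against 4.8, 3.3 and 20.2 in WT livers. At 12 weeks Gpnmb read 74.7, 98.4 and 54.8 in AIM-KO livers, against 58.7, 7.9 and 51.9 in WT livers. At 20 weeks Gpnmb read 15.8, 38.6 and 13.0 in AIM-KO livers, against 87.1, 44.4 and 69.6 in WT livers. The AIM-KO arrays at 12 weeks all lay above the chow arrays of either genotype, whereas 1 WT array at 12 weeks (replicate 2) lay within the WT chow range. At 20 weeks every AIM-KO array was below every WT array, although AIM-KO replicate 2 (38.6) was close to WT replicate 2 (44.4), and both are Xist-high. Gpnmb rose by 3.3 ± 0.59 (adjusted p = 0.000781) in AIM-KO livers at 12 weeks, and the change in WT livers, 1.64 ± 0.59 (adjusted p = 0.122), was not called. The AIM-KO change at 20 weeks was 1.59 ± 0.59 (adjusted p = 0.123), not called, and WT livers rose by 2.66 ± 0.59 (adjusted p = 0.00541). On chow 2 of 3 arrays of each genotype lay under their 40th percentile, and with these arrays set to it Gpnmb was at least 6.9-fold higher in AIM-KO livers at 12 weeks and at least 4.86-fold higher in WT livers at 20 weeks. A second Gpnmb probe set read at most 6.4 on any array.

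Lgals3 encodes galectin-3, a sugar-binding lectin released by activated macrophages. On chow Lgals3 read 86.1, 65.4 and 77.0 in AIM-KO livers, against 70.0, 66.5 and 72.1 in WT livers. At 12 weeks Lgals3 read 661.7, 622.6 and 435.7 in AIM-KO livers, against 476.1, 151.5 and 209.5 in WT livers. At 20 weeks Lgals3 read 143.9, 124.3 and 87.8 in AIM-KO livers, against 519.7, 227.0 and 776.8 in WT livers. The 6 chow arrays were tightly grouped, and each HFD array of either genotype lay above them. Later, at 20 weeks, the AIM-KO arrays were all below the WT arrays, of which the Xist-high replicate 2 was the lowest. Lgals3 rose by 2.84 ± 0.37 (adjusted p = 4.6e-05) in AIM-KO and by 1.79 ± 0.37 (adjusted p = 0.00741) in WT livers at 12 weeks. The WT call was lost without WT HFD 12 weeks replicate 1 (1.32, adjusted p = 0.056). The change against chow at 20 weeks was 0.6 ± 0.37 (adjusted p = 0.406) in AIM-KO livers, not called although all 3 arrays lay above chow, and WT livers rose by 2.64 ± 0.37 (adjusted p = 0.000114).

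Among the surface and lysosomal marker proteins, Cd9 encodes a tetraspanin, a small membrane protein that organises other surface proteins. On chow Cd9 read 181.4, 125.1 and 133.4 in AIM-KO livers, against 239.5, 150.3 and 132.8 in WT livers. At 12 weeks Cd9 read 404.8, 390.0 and 309.7 in AIM-KO livers, against 263.3, 136.4 and 169.1 in WT livers. At 20 weeks Cd9 read 235.3, 204.3 and 158.8 in AIM-KO livers, against 329.4, 353.8 and 297.3 in WT livers. The WT arrays at 12 weeks overlapped WT chow, with a change of 0.11 ± 0.23 (adjusted p = 0.848), which was not called. AIM-KO livers at 12 weeks rose by 1.32 ± 0.23 (adjusted p = 0.000652), with no overlap with chow or with WT livers at 12 weeks. At 20 weeks the AIM-KO change was 0.44 ± 0.23 (adjusted p = 0.313), not called, and WT livers rose by 0.94 ± 0.23 (adjusted p = 0.0104), a call lost without WT chow replicate 3 (0.77, adjusted p = 0.063).

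Cd68 encodes a glycoprotein of macrophage lysosomes and endosomes. On chow Cd68 read 58.5, 64.3 and 56.9 in AIM-KO livers, against 53.5, 50.3 and 54.2 in WT livers. At 12 weeks Cd68 read 121.1, 133.3 and 128.0 in AIM-KO livers, against 108.5, 74.9 and 67.5 in WT livers. At 20 weeks Cd68 read 72.6, 68.3 and 59.7 in AIM-KO livers, against 81.3, 119.4 and 82.9 in WT livers. The AIM-KO arrays at 12 weeks were the highest of all 18, and the 3 WT arrays at 12 weeks lay above WT chow without overlap. Cd68 rose by 1.05 ± 0.17 (adjusted p = 0.000398) in AIM-KO livers at 12 weeks. In WT livers at 12 weeks the change of 0.61 ± 0.17 (adjusted p = 0.0501) missed the threshold narrowly. The AIM-KO arrays at 20 weeks overlapped chow, with a change of 0.15 ± 0.17 (adjusted p = 0.711), and WT livers rose by 0.78 ± 0.17 (adjusted p = 0.00504).

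Itgax encodes CD11c, the alpha chain of a beta2 integrin found on dendritic cells and on macrophages of fat-laden tissue. On chow Itgax read 20.1, 19.2 and 4.4 in AIM-KO livers, against 10.9, 16.1 and 17.6 in WT livers. At 12 weeks Itgax read 80.3, 63.6 and 27.4 in AIM-KO livers, against 47.3, 20.3 and 17 in WT livers. At 20 weeks Itgax read 20.9, 23.6 and 34.8 in AIM-KO livers, against 41.7, 39.4 and 47.2 in WT livers. On chow and at 12 weeks the arrays of a group were widely spread and the WT ranges overlapped, while at 20 weeks every AIM-KO array lay below every WT array. Itgax rose by 1.8 ± 0.43 (adjusted p = 0.00626) in AIM-KO livers at 12 weeks, and the WT change of 0.69 ± 0.43 (adjusted p = 0.415) was not called. In AIM-KO livers at 20 weeks the change was 0.87 ± 0.43 (adjusted p = 0.264), not called. WT livers at 20 weeks rose by 1.36 ± 0.43 (adjusted p = 0.0399), a call that none of the 6 fits leaving out 1 chow or 20 week array kept (adjusted p between 0.058 and 0.12).

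The receptor Trem2, which binds lipids and signals through the adaptor Tyrobp, was the only member that rose in no comparison. On chow Trem2 read 8.5, 22.0 and 10.8 in AIM-KO livers, against 10.3, 5.4 and 22.1 in WT livers. At 12 weeks Trem2 read 10.2, 5.4 and 12.9 in AIM-KO livers, against 4.7, 10.1 and 6.4 in WT livers. At 20 weeks Trem2 read 20.4, 7.0 and 10.2 in AIM-KO livers, against 1.2, 2.7 and 3.5 in WT livers. The intensities lay near background, above the 40th percentile on 5 of 18 arrays. At 20 weeks the AIM-KO arrays lay above the WT arrays without overlap, with a difference of 1.39 ± 0.45 (adjusted p = 0.175), which was not called. Against chow the change at 12 weeks was -0.38 ± 0.45 (adjusted p = 0.642) in AIM-KO and -0.51 ± 0.45 (adjusted p = 0.607) in WT livers, and at 20 weeks -0.12 ± 0.45 (adjusted p = 0.929) in AIM-KO and -1.34 ± 0.45 (adjusted p = 0.0552) in WT livers, none called. The last of these was called lower with a pseudocount 4 times smaller (-1.89, adjusted p = 0.037), no variance trend (-1.34, adjusted p = 0.047), array weights (-1.54, adjusted p = 0.032) or without WT chow replicate 2 (-1.71, adjusted p = 0.033). A second Trem2 probe set read 2.7 to 3.1 in AIM-KO livers and 2.3 to 24.6 in WT livers at 20 weeks, the opposite order with overlapping ranges, so these arrays give no settled direction for Trem2.

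Tyrobp encodes the adaptor that carries the activating signal of TREM2 and related receptors. On chow Tyrobp read 250.5, 167.6 and 241.6 in AIM-KO livers, against 177.0, 188.9 and 166.6 in WT livers. At 12 weeks Tyrobp read 519.8, 514.2 and 488.8 in AIM-KO livers, against 442.4, 335.0 and 279.5 in WT livers. At 20 weeks Tyrobp read 296.6, 269.1 and 176.9 in AIM-KO livers, against 481.2, 473.0 and 493.0 in WT livers. The 3 WT arrays at 20 weeks lay within a narrow range, and the highest AIM-KO array was well below them. AIM-KO livers rose by 1.22 ± 0.18 (adjusted p = 0.000177) and WT livers by 0.95 ± 0.18 (adjusted p = 0.00444) against chow at 12 weeks. At 20 weeks the AIM-KO change was 0.16 ± 0.18 (adjusted p = 0.711), with arrays overlapping chow, and WT livers rose by 1.43 ± 0.18 (adjusted p = 4.71e-05).

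Cybb encodes the catalytic subunit of the phagocyte NADPH oxidase, the enzyme that makes superoxide. On chow Cybb read 117.6, 116.8 and 124.6 in AIM-KO livers, against 93.8, 111.4 and 95 in WT livers. At 12 weeks Cybb read 292.2, 322.3 and 317.5 in AIM-KO livers, against 221.3, 180.8 and 145.4 in WT livers. At 20 weeks Cybb read 187.8, 172.1 and 142.9 in AIM-KO livers, against 258.2, 254.5 and 243.4 in WT livers. The AIM-KO arrays at 12 weeks lay above all others and the WT arrays at 20 weeks next, and WT at 12 weeks and AIM-KO at 20 weeks overlapped. Cybb rose by 1.35 ± 0.14 (adjusted p = 5.23e-06) in AIM-KO and by 0.83 ± 0.14 (adjusted p = 0.00151) in WT livers at 12 weeks. At 20 weeks AIM-KO livers differed from chow by 0.47 ± 0.14 (adjusted p = 0.0514), just short of the threshold with all 3 arrays above chow, and WT livers rose by 1.31 ± 0.14 (adjusted p = 7.01e-06). Both other Cybb probe sets gave a like picture at 20 weeks, with 36.5 to 46.1 in AIM-KO against 57.4 to 70.3 in WT livers for one, and 22.3 to 38.5 against 38.5 to 43.3 for the other. At 12 weeks the first read 59.6 to 69.2 in AIM-KO against 51.3 to 57.3 in WT livers. The other read 40.2 to 54.2 against 34.6 to 41.7, with overlap. In both, AIM-KO arrays at 12 weeks overlapped WT arrays at 20 weeks.

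After 12 weeks of HFD, 8 of 9 members were called higher than chow in AIM-KO livers and 4 of 9 in WT livers, with none lower. Of all genes tested, 11.2% were called higher and 6.76% lower in the AIM-KO comparison, and 3.5% higher in the WT comparison. The median change over the members was 1.35 in AIM-KO and 0.83 in WT livers, against 0.04 and 0 over all genes. By the arrays alone, 8 members had all 3 AIM-KO HFD arrays above all 3 chow arrays, as did 20.3% of all genes, and 5 members in WT livers, as did 12.6% of genes. All 8 AIM-KO calls were kept in each of the 6 fits that left out 1 array, and the WT count was 3 without WT HFD 12 weeks replicate 1. In that WT fit 2.27% of all genes were called, against 5.13% with all arrays.

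**Figure D2:**
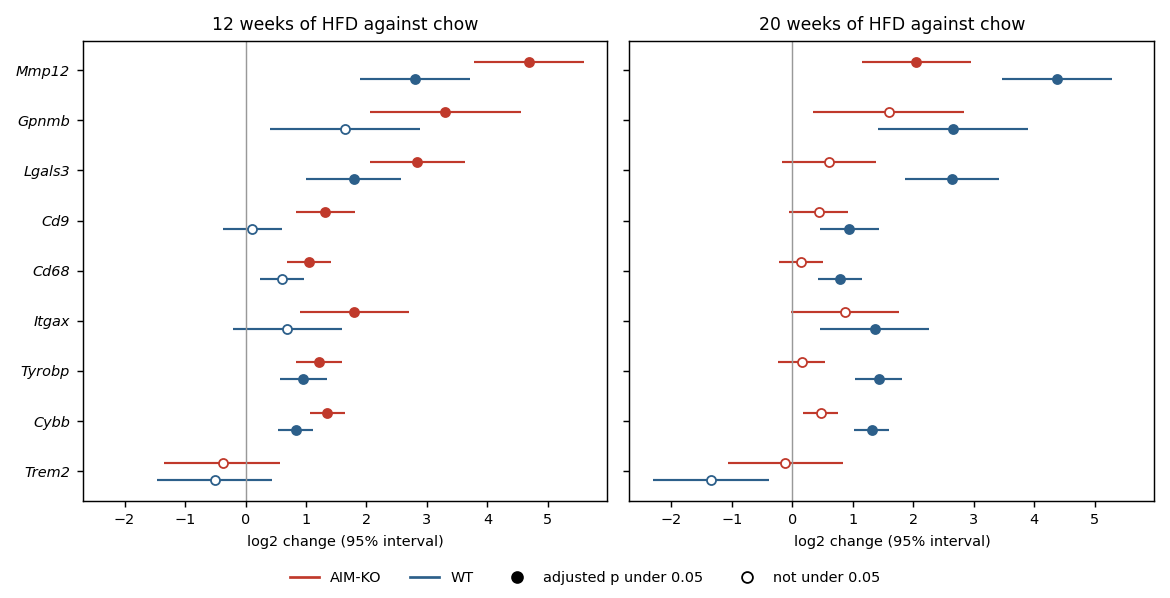
Log2 change against chow after 12 weeks (left) and 20 weeks (right) of HFD for each macrophage gene in AIM-KO (red) and WT (blue) livers, with 95% intervals of the limma fit; filled points have an adjusted p under 0.05. In AIM-KO livers 8 genes are filled at 12 weeks and 1 at 20 weeks, in WT livers 4 at 12 weeks and 8 at 20 weeks.

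Other macrophage genes were read from lists given by cell type or pathway. Of 21 tested genes of recruited monocytes and macrophages beside the members, 19 rose in AIM-KO livers, with a median change of 1.24 and values from -0.22 to 2.79, and 9 rose in WT livers, with a median of 0.9. The largest AIM-KO rises were in the monocyte chemokine Ccl2 (2.79 ± 0.57, adjusted p = 0.002), the calcium-binding protein S100a4 (2.26 ± 0.34, adjusted p = 0.00017) and the monocyte receptor Ccr2 (1.95 ± 0.36, adjusted p = 0.0011). Of 24 further lipid-associated macrophage genes, 13 rose and 2 fell in AIM-KO livers and 10 rose in WT livers. Fabp4, a fatty acid carrier, rose by 2.75 ± 0.29 in AIM-KO livers (adjusted p = 6.6e-06) and by 1.82 ± 0.29 in WT livers (adjusted p = 0.001), and the lipid scavenger receptor Cd36 by 2.45 ± 0.35 (adjusted p = 0.00012) and 2.58 ± 0.35 (adjusted p = 0.00024). These 2 genes and Lgals1 are also made by hepatocytes, endothelium or stellate cells.

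Partners of the members' own proteins were read from short lists. Of 17 tested genes of TREM2 and TYROBP signalling, 7 rose in AIM-KO livers at 12 weeks, among them the phospholipase Plcg2 (1.34 ± 0.26, adjusted p = 0.0014) and the kinase Syk (1.11 ± 0.2, adjusted p = 0.00073), and 2 rose in WT livers, the receptor Cd300lb (1.17 ± 0.29, adjusted p = 0.023) and the phosphatase Inpp5d (0.89 ± 0.2, adjusted p = 0.011). Of 5 partners of Cybb in the oxidase, 3 rose in AIM-KO livers, namely Cyba, the other membrane subunit (1.35 ± 0.23, adjusted p = 0.00044), and the cytosolic subunits Ncf4 (1.04 ± 0.26, adjusted p = 0.0085) and Ncf1 (0.88 ± 0.23, adjusted p = 0.012). In WT livers at 12 weeks limma called none of the 5, with 2 at an unadjusted p under 0.05. Itgb2, the beta chain that pairs with CD11c, rose by 1.54 ± 0.19 in AIM-KO livers (adjusted p = 2.4e-05), as did Itgal, the alpha chain of LFA-1, by 1.05 ± 0.18 (adjusted p = 0.00049), of 3 beta2 integrin genes tested. Of 9 osteopontin receptor genes, 5 rose in AIM-KO livers, Cd44 by 1.77 ± 0.21 (adjusted p = 1.9e-05), and 1 in WT livers, Cd44 by 0.95 ± 0.21 (adjusted p = 0.012).

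Relatives of Mmp12, Lgals3 and Cd9 rose in part. Mmp13, a collagenase, rose by 4.52 ± 0.55 in AIM-KO (adjusted p = 2.3e-05) and by 2.16 ± 0.55 in WT livers at 12 weeks (adjusted p = 0.027), and 5 and 3 of 12 metalloproteinase and inhibitor genes rose in these comparisons. Of 7 galectin genes other than Lgals3, 2 rose in each genotype at 12 weeks, in both cases Lgals1 (2.62 ± 0.32, adjusted p = 2e-05, in AIM-KO and 2.18 ± 0.32, adjusted p = 0.00039, in WT livers), with Lgals4 in AIM-KO and Lgals8 in WT livers. Of 9 tetraspanin genes other than Cd9, 3 rose and 1 fell in AIM-KO livers. The leukocyte tetraspanin Cd53 rose by 0.96 ± 0.19 (adjusted p = 0.0017), and Tspan33 fell by 1.09 on the log2 scale (SE 0.24, adjusted p = 0.0034).

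Markers of other cells moved as well at 12 weeks. The 9 Kupffer markers summed to 2015 to 2657 in AIM-KO livers at 12 weeks, against 2122 to 2380 on chow, and to 2158 to 2997 in WT livers at 12 weeks, against 2328 to 2421 on chow. Of these 9, Clec1b (0.84 ± 0.2, adjusted p = 0.0069) and Clec4f (0.56 ± 0.17, adjusted p = 0.031) rose in AIM-KO livers. The markers did not move as one, with 5 of the 9 changes above 0, a median of 0.11 and a lowest of -1.24. Timd4 read 14.4 to 19 in AIM-KO livers at 12 weeks, against 35.6 to 39.5 on chow. C6 read 220.3 to 326, against 499.1 to 739.9 on chow, and limma called no Kupffer marker lower. The 10 hepatocyte markers summed to 52990 to 57340 in AIM-KO livers at 12 weeks, against 77300 to 80500 on chow, and 9 of them were called lower. In WT livers at 12 weeks they summed to 59140 to 71650, against 69850 to 84450 on chow, and 1 was called lower. The 8 stellate cell markers summed to 900 to 1139 in AIM-KO livers at 12 weeks, against 655.7 to 749.7 on chow, with 4 called higher. Of 10 markers of T and NK cells 9 were on the array, and the 6 tested summed to 103.5 to 148.7 against 62.9 to 84.2, with 1 called higher. Of 8 dendritic cell markers 7 were on the array, and the 6 tested summed to 102.2 to 145 against 48.8 to 79.7, with 2 called higher. The part of these cells in the members' rises was not tested.

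**Figure D3:**
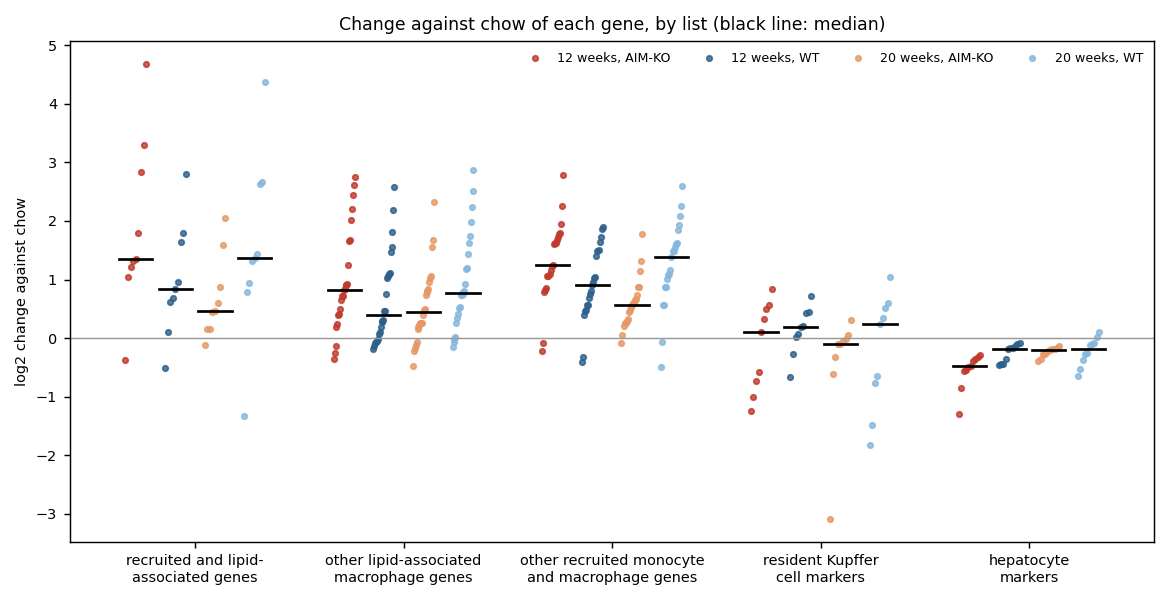
Log2 change against chow of every tested gene of 5 lists (points) and the list medians (black lines), at 12 and 20 weeks of HFD in AIM-KO and WT livers. The members' medians are 1.35 and 0.83 at 12 weeks and 0.47 and 1.36 at 20 weeks in AIM-KO and WT livers, while the Kupffer marker medians lie between -0.11 and 0.24.

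At 20 weeks of HFD, 1 of 9 members, Mmp12, was called higher than chow in AIM-KO livers, and 8 of 9 in WT livers. Over all genes 4.23% were called higher in AIM-KO and 8.69% in WT livers. The members' median change was 0.47 in AIM-KO and 1.36 in WT livers, against 0.04 and -0.01 over all genes. In AIM-KO livers 5 members had all HFD arrays above all chow arrays (13.5% of genes), namely Mmp12, Gpnmb, Lgals3, Itgax and Cybb, and in WT livers 8 members did (15.4% of genes). With the Xist term the Mmp12 change in AIM-KO livers was 2.89 (adjusted p = 0.069) and no member was called. Of all genes 1.33% were called there, against 6.85% without the term. Without WT HFD 20 weeks replicate 2, 7 of 9 members were called in WT livers, with Mmp12 at 4.66 (adjusted p = 6.5e-06), Lgals3 at 3.13 (adjusted p = 9.6e-06) and Tyrobp at 1.44 (adjusted p = 0.00016), and the call lost was Itgax at 1.41 (adjusted p = 0.058). In that fit 16.7% of all genes were called, against 14.5% with all arrays.

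The wider macrophage lists were also read at 20 weeks. Of 21 recruited monocyte and macrophage genes, 3 rose in AIM-KO livers (median 0.56) and 18 rose and 1 fell in WT livers (median 1.38). The 3 in AIM-KO livers were S100a4 (1.78 ± 0.34, adjusted p = 0.0032), its relative S100a6 (1.32 ± 0.33, adjusted p = 0.02) and the membrane protein Ms4a6c (0.88 ± 0.22, adjusted p = 0.019). In WT livers Ccl2 rose by 2.59 ± 0.57 (adjusted p = 0.0045) and the monocyte and macrophage lectin Chil3 by 2.08 ± 0.45 (adjusted p = 0.0041). Of the 24 lipid-associated genes, 8 rose in AIM-KO and 12 in WT livers, Cd36 leading in both (2.33 ± 0.35, adjusted p = 0.00048, and 2.87 ± 0.35, adjusted p = 3.2e-05). TREM2 and TYROBP signalling genes and the oxidase partners had no call by limma in AIM-KO livers at 20 weeks, with 3 of 17 and 1 of 5 at an unadjusted p under 0.05. In WT livers 3 of 17 signalling genes rose, Cd300lb the most (1.34 ± 0.29, adjusted p = 0.0043), and 2 of 5 oxidase partners, Cyba (1.1 ± 0.23, adjusted p = 0.003) and Ncf4 (0.81 ± 0.26, adjusted p = 0.043). The Kupffer markers summed to 1324 to 2242 in AIM-KO livers at 20 weeks, against 2122 to 2380 on chow, and to 2188 to 2649 in WT livers at 20 weeks, against 2328 to 2421 on chow. The stellate markers summed to 995.2 to 1194 in AIM-KO livers, against 655.7 to 749.7 on chow, with 3 of 8 called higher, and to 1292 to 1589 in WT livers, against 772.8 to 869.8 on chow, with 5 called higher. Among Kupffer markers C6, a complement gene, fell by 3.09 (SE 0.45, adjusted p = 0.00028) in AIM-KO and by 1.83 (SE 0.45, adjusted p = 0.0095) in WT livers, while Clec1b (1.05 ± 0.2, adjusted p = 0.0019) and Adgre1, which encodes F4/80, (0.6 ± 0.19, adjusted p = 0.038) rose in WT livers. Lyve1 of sinusoidal endothelium, which some macrophages also carry, rose by 1.97 ± 0.21 (adjusted p = 8.6e-06) in WT livers, and limma called none of 8 endothelial markers in AIM-KO livers, with 3 at an unadjusted p under 0.05. The hepatocyte markers summed to 61240 to 71190 in AIM-KO livers, against 77300 to 80500 on chow, with 1 of 10 called lower, and to 63630 to 75550 in WT livers, against 69850 to 84450 on chow, with 3 called lower. The part of these cells in the members' changes was not tested. With the Xist term 1 of the 21 recruited genes, 3 of the 24 lipid-associated genes and 1 of the 8 stellate markers were called higher in AIM-KO livers. The term left 1.33% of all genes called in that comparison. Without WT HFD 20 weeks replicate 2, the WT counts were 17 recruited genes higher and 1 lower, 14 lipid-associated genes, 3 signalling genes, 2 oxidase partners and 5 stellate markers.

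From 12 to 20 weeks of HFD the change of each member had opposite signs in AIM-KO and WT livers. In AIM-KO livers 6 of 9 members fell at 20 weeks against 12 weeks, where 2.11% of all genes were called lower, and 7 members had all 20 week arrays below all 12 week arrays, as did 15.5% of genes. The 6 were Mmp12 (-2.63 ± 0.43, adjusted p = 0.00468), Lgals3 (-2.25 ± 0.37, adjusted p = 0.00468), Tyrobp (-1.06 ± 0.18, adjusted p = 0.00551), Cd68 (-0.9 ± 0.17, adjusted p = 0.00866), Cybb (-0.89 ± 0.14, adjusted p = 0.00429) and Cd9 (-0.88 ± 0.23, adjusted p = 0.045). Of these, Mmp12, Lgals3, Tyrobp and Cybb were called in all 6 fits without 1 array, Cd68 in 4 (not without AIM-KO HFD 12 weeks replicate 2, -0.87, adjusted p = 0.055, or AIM-KO HFD 20 weeks replicate 3, -0.83, adjusted p = 0.064), and Cd9 in 1, that without AIM-KO HFD 12 weeks replicate 3 (-1.01 to -0.73 over the 6, adjusted p between 0.047 and 0.21). Gpnmb changed by -1.71 ± 0.59 (adjusted p = 0.132) and Itgax by -0.93 ± 0.43 (adjusted p = 0.282), neither called.

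In WT livers limma called no member between 20 and 12 weeks, with 5 of 9 at an unadjusted p under 0.05, and 0.0136% of genes were called higher. Of the 9 changes 8 were above 0, from 0.18 ± 0.17 for Cd68 to 1.57 ± 0.43 (adjusted p = 0.269) for Mmp12, and 3 members (Cd9, Tyrobp and Cybb) had all 20 week arrays above all 12 week arrays, as did 5.42% of genes. Without WT HFD 12 weeks replicate 1, the WT array with the highest Mmp12 at 12 weeks, Mmp12 was called at 2.19 (adjusted p = 0.014). Without WT HFD 20 weeks replicate 2 no member was called by limma, with Mmp12 at 1.85 (adjusted p = 0.12), Lgals3 at 1.35 (adjusted p = 0.12), Tyrobp at 0.49 (adjusted p = 0.35) and Cd68 at 0.0 (adjusted p = 1), and the Xist term gave the same values.

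The difference of these changes, AIM-KO minus WT, was tested as an interaction. It was called for 6 of 9 members, all lower, where 1.06% of genes were called lower. The difference was -4.21 ± 0.61 (adjusted p = 0.00365) for Mmp12, -3.1 ± 0.53 (adjusted p = 0.0108) for Lgals3, -1.71 ± 0.33 (adjusted p = 0.0157) for Cd9, -1.53 ± 0.26 (adjusted p = 0.0108) for Tyrobp, -1.36 ± 0.2 (adjusted p = 0.00365) for Cybb and -1.08 ± 0.25 (adjusted p = 0.0362) for Cd68. Mmp12, Lgals3, Tyrobp and Cybb were called in all 12 fits without 1 array of the 4 groups, Cd9 in 7 (adjusted p up to 0.068) and Cd68 in 2 (adjusted p up to 0.12). Cd9 lost its call without WT HFD 12 weeks replicate 3 (-1.65), AIM-KO HFD 12 weeks replicates 1 (-1.63) and 2 (-1.66), WT HFD 20 weeks replicate 1 (-1.7) or AIM-KO HFD 20 weeks replicate 3 (-1.55), and Cd68 kept its call without WT HFD 12 weeks replicate 1 or WT HFD 20 weeks replicate 2, and in no other fit (-1.17 to -0.94 in these). Without WT HFD 20 weeks replicate 2 all 6 were called, Mmp12 at -4.49 (adjusted p = 0.00086), Lgals3 at -3.59 (adjusted p = 0.00039) and Tyrobp at -1.55 (adjusted p = 0.0036). In that fit 5.05% of all genes were called, against 1.42% with all arrays. No WT array in it is Xist-high, so genotype and high Xist at 20 weeks cannot be told apart there. With the Xist term the fall from 12 to 20 weeks in AIM-KO livers was called for no member by limma, Mmp12 at -1.8 (adjusted p = 0.58) and Lgals3 at -0.77 (adjusted p = 0.79), and the difference for Cybb only, -1.38 (adjusted p = 0.037), with Mmp12 at -3.65 (adjusted p = 0.07), Tyrobp at -1.51 (adjusted p = 0.12) and Lgals3 at -2.12 (adjusted p = 0.19). The term left 0.034% of all genes called for the fall and 0.102% for the difference, against 3.42% and 1.42% without it.

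**Figure D4:**
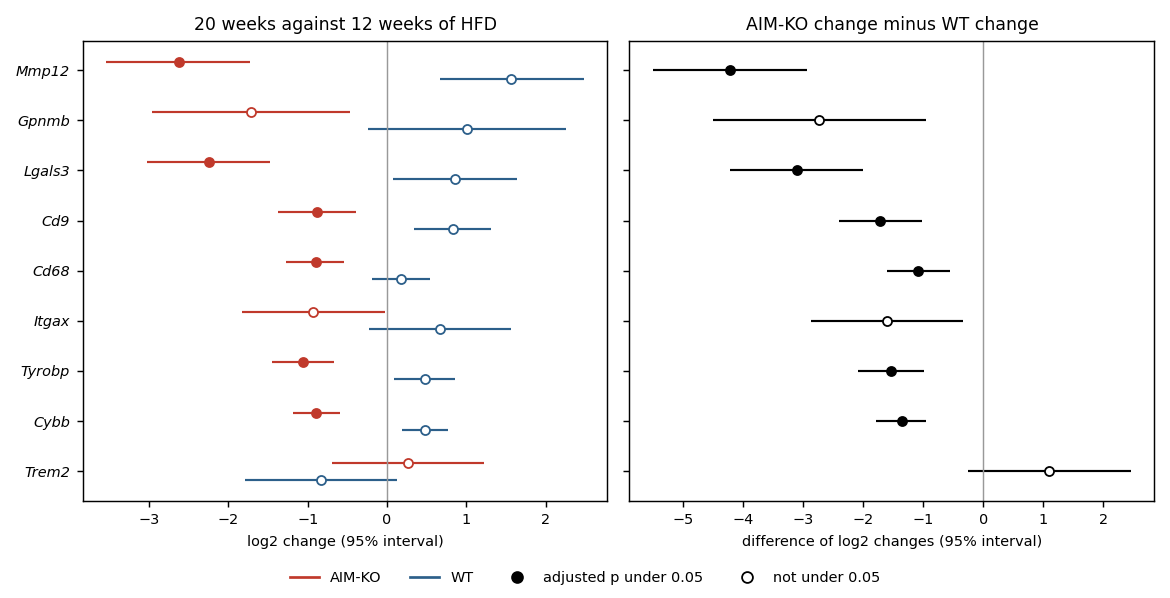
Log2 change at 20 against 12 weeks of HFD in AIM-KO (red) and WT (blue) livers (left), and the AIM-KO change minus the WT change (right), with 95% intervals; filled points have an adjusted p under 0.05. In AIM-KO livers 8 of 9 genes lie below 0 and in WT livers 8 of 9 lie above 0, and the difference runs from -4.21 for Mmp12 to 1.1 for Trem2.

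Other macrophage genes fell in AIM-KO livers over the same interval. Of 21 recruited monocyte and macrophage genes 5 fell (median -0.66), among them Cd44 (-1.11 ± 0.21, adjusted p = 0.0086), Laptm5 (-1.05 ± 0.19, adjusted p = 0.0056) and the antibody receptor Fcgr4 (-0.98 ± 0.25, adjusted p = 0.036). Of 24 lipid-associated genes 7 fell (median -0.3), among them the lipase Lpl (-1.38 ± 0.32, adjusted p = 0.021), Anxa5 (-1.23 ± 0.21, adjusted p = 0.0055) and Cd52 (-1.18 ± 0.19, adjusted p = 0.0047). The median over all genes was -0.01. In WT livers limma called none of either list, with 8 and 7 at an unadjusted p under 0.05 and medians of 0.39 and 0.31. In AIM-KO livers Mmp13 fell by 3.01 on the log2 scale (SE 0.55, adjusted p = 0.0072) and Itgb2 by 1.07 (SE 0.19, adjusted p = 0.0056). The difference between the genotypes was called for 5 of the 21 and 6 of the 24 genes. With the Xist term limma called none of either list in AIM-KO livers, with 4 and 3 at an unadjusted p under 0.05, where 5 of all genes (0.034%) were called, against 503 without the term. Likewise the term left no gene of either list called for the difference, with 11 and 10 at an unadjusted p under 0.05. Without WT HFD 20 weeks replicate 2 the counts were 7 and 8, where 5.05% of all genes were called. Over this interval the Kupffer markers summed to 1324 to 2242 in AIM-KO livers at 20 weeks, against 2015 to 2657 at 12 weeks, with C6 (-1.86 ± 0.45, adjusted p = 0.028) and Clec1b (-0.95 ± 0.2, adjusted p = 0.015) called lower. The hepatocyte markers summed to 61240 to 71190 at 20 weeks, against 52990 to 57340 at 12 weeks, with 2 of 10 called higher. Lyve1, a marker of sinusoidal endothelium that some macrophages also carry, read 66.4 to 83.4 against 189.9 to 200.7 and fell by 1.34 (SE 0.21, adjusted p = 0.0046). The part of these cells in the members' fall was not tested.

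On chow no member was called between AIM-KO and WT livers. Limma called 0 of 9, with 0 at an unadjusted p under 0.05, and 0.0272% of all genes were called in either direction. The differences ran from -0.46 ± 0.59 for Gpnmb, with a 95% interval of -1.71 to 0.79, to 0.28 ± 0.18 for Tyrobp with an interval of -0.1 to 0.67. Cybb differed by 0.25 ± 0.14 and Cd68 by 0.17 ± 0.17, neither called. For both, all AIM-KO chow arrays already lay above all WT chow arrays. Cybb read 116.8 to 124.6 against 93.8 to 111.4, and Cd68 56.9 to 64.3 against 50.3 to 54.2.

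At 12 weeks of HFD all 9 differences were above 0 and limma called Cybb alone, 0.78 ± 0.14 (adjusted p = 0.0441), where 0.0408% of genes were called higher. A further 6 members had an unadjusted p under 0.05, and 4 members (Cd9, Cd68, Tyrobp and Cybb) had all AIM-KO arrays above all WT arrays, as did 8.47% of genes. Mmp12 differed by 1.65 ± 0.43 (adjusted p = 0.185), Lgals3 by 1.18 ± 0.37 (adjusted p = 0.306) and Cd9 by 0.99 ± 0.23 (adjusted p = 0.148), none called. The Cybb call was lost in each fit without 1 array other than WT HFD 12 weeks replicate 1 (0.63 to 0.82, adjusted p between 0.12 and 0.29). Without WT HFD 12 weeks replicate 1, whose Mmp12, Lgals3 and Cd68 were the highest of its group, 5 members were called, with Mmp12 at 2.27 (adjusted p = 0.0065) and Lgals3 at 1.64 (adjusted p = 0.034). In that fit 0.708% of all genes were called, against 0.0749% with all arrays. The difference of the 12 week diet effect between the genotypes was called for no member by limma, with 3 of 9 at an unadjusted p under 0.05 and 0.00681% of genes called.

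At 20 weeks of HFD 8 of 9 members were lower in AIM-KO than in WT livers on every array, as were 8.77% of genes, and 3 were called lower, where 0.129% of genes were. The called genes were Mmp12 (-2.55 ± 0.43, adjusted p = 0.0262), Lgals3 (-1.93 ± 0.37, adjusted p = 0.0414) and Tyrobp (-0.99 ± 0.18, adjusted p = 0.0399), and Cybb was at -0.59 ± 0.14 (adjusted p = 0.0861). Limma called 0 of 21 recruited and 0 of 24 lipid-associated genes, with 15 and 11 at an unadjusted p under 0.05 and medians of -0.66 and -0.29. Markers of other cells also stood lower, the 8 stellate markers summing to 995.2 to 1194 in AIM-KO against 1292 to 1589 in WT livers (median difference -0.47, 0 called by limma, 4 at an unadjusted p under 0.05). Of 8 endothelial markers 1 was called lower, Lyve1 (-1.13 ± 0.21, adjusted p = 0.041), which read 66.4 to 83.4 in AIM-KO against 132.7 to 203.7 in WT livers. The part of these cells in the members' differences was not tested. Without WT HFD 20 weeks replicate 2, 4 members were called, Lgals3 at -2.42 (adjusted p = 0.00051), Mmp12 at -2.83 (adjusted p = 0.002), Tyrobp at -1 (adjusted p = 0.0084) and Cybb at -0.58 (adjusted p = 0.035). So were 4 recruited genes lower and 1 higher, 8 lipid-associated genes lower, and 2 stellate and 2 endothelial markers lower. In that fit 6.44% of all genes were called, against 0.157% with all arrays. Only the AIM-KO arrays at 20 weeks are Xist-high in it, so genotype and high Xist cannot be told apart there. Each of the other 5 fits without 1 array lost the Mmp12 call (-2.63 to -2.4, adjusted p between 0.068 and 0.22) and the Lgals3 call (-2.08 to -1.54, adjusted p between 0.077 and 0.29), and 4 of them lost that of Tyrobp (-1.06 to -0.76, adjusted p between 0.068 and 0.25). A term for the actin ratio, which was higher in 2 of 3 WT livers, left no member called, nor did the Xist term, with Mmp12 at -1.99 (adjusted p = 0.62), Tyrobp at -0.96 (adjusted p = 0.53) and Lgals3 at -0.95 (adjusted p = 1). The actin term left 0.0136% and the Xist term 0.0408% of all genes called, against 0.157% without them.

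The 4 Xist-high arrays, 3 AIM-KO and 1 WT, can be set against each other. Their order follows from that of all arrays at 20 weeks, given above, and is no separate result. The AIM-KO arrays against WT HFD 20 weeks replicate 2 read 14.8 to 21.5 against 84.9 for Mmp12 and 87.8 to 143.9 against 227.0 for Lgals3. Cd68 read 59.7 to 72.6 against 119.4 and Tyrobp 176.9 to 296.6 against 473.0. Trem2 stood the other way, at 7.0 to 20.4 against 2.7. The log2 differences were -1.99 for Mmp12, -0.95 for Lgals3, -0.96 for Tyrobp and -0.6 for Cybb. These rest on 1 WT array and are the values of the fit with the Xist term, in which limma called none (adjusted p = 0.62 for Mmp12, 1 for Lgals3, 0.53 for Tyrobp and 0.8 for Cybb). The difference of the 20 week diet effect between the genotypes was called by limma for no member, with 5 of 9 at an unadjusted p under 0.05 and 0.0% of genes called. Without WT HFD 20 weeks replicate 2 it was called for 4 members, where 2.26% of all genes were called. These were Lgals3 at -2.54 (adjusted p = 0.0083), Tyrobp at -1.28 (adjusted p = 0.024), Mmp12 at -2.61 (adjusted p = 0.041) and Cybb at -0.83 (adjusted p = 0.048). Genotype and high Xist at 20 weeks cannot be told apart in that fit.

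The order of the 6 groups was the same at its top for 8 members, with the mean of AIM-KO livers at 12 weeks first and WT livers at 20 weeks second. These neighbours overlapped for all but Cd68 and Cybb. Mmp12 averaged 138 ± 40.2 in AIM-KO livers at 12 weeks and 131 ± 40.2 in WT livers at 20 weeks (SD, n = 3 each). Next came WT livers at 12 weeks and AIM-KO livers at 20 weeks, whose arrays overlapped for 7 of these 8 members, Lgals3 being the exception, and the chow groups were last. For Cd9 alone the mean of AIM-KO livers at 20 weeks, 199 ± 38.5, stood above that of WT livers at 12 weeks, 190 ± 65.9.

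Genes outside the list whose level followed the members most closely over the 18 arrays were found by Pearson correlation with the mean of the members' scaled log2 values. The 10 closest were Fcer1g, the signalling chain of antibody receptors (0.979), the transglutaminase Tgm2 (0.976), the basement membrane gene Nid1 (0.968), the beta2 integrin chain Itgb2 (0.967), Fermt3, an integrin activator of blood cells (0.967), the phagocyte receptor Sirpa (0.966), Tmem237 (0.966), Mmp13 (0.965), the myosin light chain Myl12a (0.961) and the lysosomal protease Ctsd (0.959). For single members, Mmp12 was nearest to Ly6d (0.977) and Gusb (0.975), Lgals3 to Haus8 and Uap1l1 (0.982 each), Cybb to the complement gene C1qb (0.98) and to Cd52 (0.97), and Tyrobp to Cd52 (0.981) and Fcer1g (0.972). Gpnmb was nearest to Frmd6 (0.969), Cd68 to Itgb2 (0.95), Itgax to Dab2ip (0.935), Cd9 to Ckb (0.924) and Trem2 to Cplx4 (0.831). These values describe 18 arrays that fall into diet groups and share their scaling, and they carry no test.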

How the data were processed

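Liver RNA of 18 samples was measured on Affymetrix mouse expression arrays. The deposited values are intensities on a linear scale, made with MAS5 per the submitters' processing notes (version not given here), and their trimmed mean was 100 on every array. Of 45101 probe sets, 64 controls, 932 with several genes and 9160 without a gene symbol were left out, and 34741 of 34945 symbols were updated by Entrez identifier.

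The brightest probe set by mean stood for each gene. Genes brighter than the 40th percentile on 3 or more arrays were kept, 14691 in all. Values were analysed as log2(intensity + 3.3), the 20th percentile, so that changes of dim genes are understated. One limma model (version 3.58.1, R 4.3.3) held 6 group means over 18 arrays, with eBayes, a variance trend and Benjamini-Hochberg adjustment over all genes of each of 12 comparisons. The number of arrays limits the precision.

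The members and the gene lists were chosen with earlier results of these data known. All members were named, and of each list up to 3 called genes with the largest change. Replicate numbers were not taken as pairs, and whether they pair samples is not settled. Deviations from group means correlated over 0.1 for 5 of 45 same-number pairs and 4 of 90 others, with median correlations of 0.04 and -0.02. Alternatives were the pseudocount, filter, probe set rule, normalization, variance model, samples fitted, replicate block, a term for the arrays with Xist over 1000, a term for the actin ratio, and leaving out each array. Comparing the Xist-high arrays with each other, the lists' counts with the Xist term or without the Xist-high WT array, and the least folds were added after seeing the data. Promoter windows came from RefSeq (GRCm38.p6).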

Additional observations from a re-analysis of the deposited data

Results flagged for a closer look

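For 6 macrophage genes the change from 12 to 20 weeks of HFD differed between the genotypes by a test of the difference itself (limma, adjusted p between 0.00365 and 0.0362). In this test 1.06% of all genes were called lower. Mmp12, Lgals3, Tyrobp and Cybb kept the call in all 12 fits without 1 array, Cd9 in 7 and Cd68 in 2. The AIM-KO change minus the WT change was -4.21 for Mmp12, -3.1 for Lgals3, -1.71 for Cd9, -1.53 for Tyrobp, -1.36 for Cybb and -1.08 for Cd68 on the log2 scale. For Mmp12 the change was -2.63 in AIM-KO livers and 1.57 in WT livers, for Lgals3 -2.25 and 0.86, for Cd9 -0.88 and 0.83, for Tyrobp -1.06 and 0.48, for Cybb -0.89 and 0.48, and for Cd68 -0.9 and 0.18. All 3 AIM-KO arrays at 20 weeks are Xist-high and none at 12 weeks is. With the Xist term the difference was called for Cybb, at -1.38, and for none of the other 5. Of all genes 0.102% were called with the term, against 1.42% without it. Cybb is the only one of these genes on the X chromosome, and whether that bears on its call was not tested.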

How the results depend on the processing

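Members had 37 called changes over all comparisons, and 12 alternatives other than leaving out 1 array gave 444 values of them, of which 400 kept direction and call and 44 lost the call. Of the values without 1 array, 209 kept the call and 49 lost it. The 8 rises in AIM-KO livers at 12 weeks were called in each fit without 1 array, where 11.5% to 15.9% of all genes were called. The count of 1 in AIM-KO livers at 20 weeks against chow was 0 with a pseudocount 4 times larger and with the Xist term, 2 with a stricter filter and with the replicate block, 3 with array weights, and 1 to 2 without replicates in turn. The share of all genes called there was 6.85% in the main fit. It was 6.68%, 1.33%, 10.3%, 7.56% and 13.5% with these settings in that order, and 3.66% to 6.82% without replicates. The count of 1 between AIM-KO and WT livers at 12 weeks was 0 with no dim filter, the mean of probe sets, no variance trend, the compared groups alone and the actin term, 2 with array weights and the replicate block, and 0 to 5 without replicates in turn. Of all genes 0.0749% were called in the main fit, and 0.0204% to 0.0408% over the settings listed from no dim filter to the actin term. Array weights gave 0.456%, the replicate block 0.116%, and leaving out replicates 0.0204% to 0.708%. The count of 3 at 20 weeks was 0 with the mean of probe sets, no variance trend, the Xist term and the actin term, 1 with no dim filter and the compared groups alone, and 0 to 4 without replicates in turn. The main fit called 0.157% of all genes there. The mean of probe sets, no variance trend and the actin term each called 0.0136%, and the Xist term 0.0408%. No dim filter called 0.0495%, the compared groups alone 0.0613%, and leaving out replicates 0.0136% to 6.44%. The 6 falls in AIM-KO livers from 12 to 20 weeks became 0 with the Xist term, 5 with no dim filter, the mean of probe sets and no variance trend, 7 with the compared groups alone and 8 with array weights. The share of all genes called moved as well, from 3.42% in the main fit to 0.034% with the Xist term. It was 2.12%, 2.45% and 1.51% with no dim filter, the mean of probe sets and no variance trend. With the compared groups alone it was 9.19%, and with array weights 11.3%. The 6 differences of that change became 1 with the Xist term, 4 with no variance trend and 5 with the compared groups alone. For these settings 0.102%, 0.259% and 1.02% of all genes were called, against 1.42% in the main fit. Without replicates in turn the count in WT livers from 12 to 20 weeks was 0 to 1, and that of the difference of the 20 week diet effect 0 to 4. In these fits 0.00681% to 0.225% and 0.0% to 2.26% of all genes were called. With the replicate block, which rests on numbers that do not pair the samples, the other counts were 8, 5 and 8 against chow in AIM-KO at 12 weeks and WT at 12 and 20 weeks, 6 for AIM-KO at 20 against 12 weeks, 3 between genotypes at 20 weeks and 6 for the difference of changes.

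Reversals touched only changes that were not called. With the mean of probe sets Trem2 was at 0.04 in WT livers at 12 weeks, -0.29 in AIM-KO livers at 20 against 12 weeks, and -0.04, -0.1 and -0.06 for the differences of the 12 week effect, the 20 week effect and the later change. With array weights Itgax on chow was at 0.07 and the Trem2 difference at 12 weeks at -0.17, and with the Xist term Cd68 in AIM-KO livers at 20 weeks at -0.37. Without replicates in turn, the difference on chow ran from -0.38 to 0.03 for Cd9, -0.85 to 0.1 for Gpnmb, -0.45 to 0.36 for Itgax and -0.2 to 0.57 for Trem2. Likewise Cd9 in WT livers at 12 weeks ran from -0.15 to 0.36, Tyrobp in AIM-KO livers at 20 weeks from -0.02 to 0.38, and Trem2 from -0.45 to 0.21 there, from -0.07 to 0.53 at 20 against 12 weeks and from -0.28 to 0.49 for the difference at 12 weeks. The causes were not tested. Dim signal limits Trem2, and Mmp12 and Gpnmb on chow.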
